A study of Capra hircus with 12 samples.

Results

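The layer by LOXL2 interaction asks, gene by gene, whether LOXL2 shifted expression by a different amount in the 2 cartilage layers of the goat temporomandibular joint (TMJ). All 12 libraries of the series entered it, 3 for each combination of layer and treatment. The cells were superficial layer cells (SLC) and middle layer cells (MLC), and the treatments were IL-1β alone and IL-1β with LOXL2. For each gene the LOXL2 effect of a layer is the log2 fold change of its IL-1β + LOXL2 libraries over its IL-1β libraries. The difference of differences is the MLC effect minus the SLC effect, so that a positive value means a more positive effect in MLC. The count tables of both layers held the same 28910 genes in the same order, and 14534 genes had enough counts to be tested. Per the study's methods, the cells came from joints of female goats aged 6 to 9 months, were separated with collagenase and were used at passages 3 to 5. IL-1β was given at 10 ng for 1 h, and LOXL2 was delivered by an adenovirus left on the cells overnight before the cytokine. The study's methods give an empty adenovirus for flow cytometry of these cells. Whether the sequenced cultures without LOXL2 received it is not given in the sources used here, and if they did not, LOXL2 and the transduction itself cannot be told apart. All groups received IL-1β, so none shows cells without the cytokine. The labels number the replicates but do not say that they came from separate animals or cultures, and the p-values therefore measure the spread between these libraries, which may be technical.

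LOXL2 belongs to the lysyl oxidase family of copper-dependent enzymes that oxidize lysine residues and thereby cross-link collagen and elastin. IL-1β is a cytokine that signals through a receptor complex of IL1R1 and IL1RAP to NF-κB and MAP kinases, and in cartilage it is known for inducing chemokines, prostaglandin synthesis and enzymes that degrade the matrix. The superficial cells of the TMJ condyle are fibroblast-like and border a fibrous surface, whereas the deeper cells are chondrocytes embedded in a matrix of collagen and aggrecan.

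Library totals ranged from 18751323 to 28931652 counts in SLC and from 14158607 to 19459045 in MLC, so most SLC libraries were the deeper ones. The sum of 26 chondrocyte identity genes was 2138 to 2393 CPM (counts scaled to the library total) in SLC libraries and 3123 to 3578 CPM in MLC libraries. COL2A1, the cartilage collagen, had 1 count over all 6 SLC libraries and 1594 over the MLC libraries. The sum of 23 genes of the superficial and fibrous layer was also higher in MLC, against the layer labels. It was 42920 to 53400 CPM in SLC libraries and 54020 to 58240 CPM in MLC libraries. Among the chondrocyte markers MATN1 and CYTL1 were at 0 in every library, as was TNMD among fibrous markers. Markers of other cells were low, with at most 50.6 CPM summed over 10 endothelial genes and at most 141.5 CPM over 10 leukocyte genes in any library. The goat LOXL2 gene itself had 11590, 11660 and 11900 normalized counts in SLC with IL-1β and 8535, 10130 and 10410 in the libraries labelled with LOXL2. The MLC values were 14330, 16320 and 15220 and then 15260, 14750 and 13820, so neither layer showed an increase of the gene under its label. Which LOXL2 sequence the virus carried, and whether its reads would be assigned to the goat gene, is not given in the sources used here.

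The LOXL2 effect ran largely in the same direction in both layers and was smaller in MLC. Across the 14534 genes the effects of the layers, which share no library, correlated with a Pearson r of 0.75 and a Spearman rho of 0.82, and 85.9% of genes had the same sign. Genes are not independent of each other, so these correlations are a description. The median absolute effect was 0.38 on the log2 scale in SLC and 0.26 in MLC, a ratio of 0.68, and the slope of the principal axis of MLC on SLC was 0.65. The absolute effect was smaller in MLC for 75.8% of genes. In the joint fit of both layers 7592 genes had an unadjusted p under 0.05 for the SLC effect (52.2% of genes tested) and 3728 for the MLC effect (25.7%). At an adjusted p under 0.05 from edgeR's quasi-likelihood test there were 5965 genes in SLC (41%) and 0 in MLC (0%), where DESeq2's Wald test gave 236. These counts rested on single libraries. In SLC the count was 0 without the second IL-1β library, 0 without the third LOXL2 library, 38 without the first IL-1β library and 1252 without the second LOXL2 library, so each adjusted p given below for SLC alone lost its call in at least 2 of the 12 fits that left out 1 library. In MLC the count was 27 without the layer's first LOXL2 library, 3753 without the first SLC library with LOXL2 and 6223 without the first LOXL2 library of both layers. Of the 3272 genes past the unadjusted p in both layers, 3271 had the same direction, and 2874 (87.8%) had the smaller absolute effect in MLC, with a median ratio of 0.74. LOC102179366, named after its values were seen, was the exception, with a log2 effect of 0.67 in SLC and -1.02 in MLC.

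**Figure D1:**
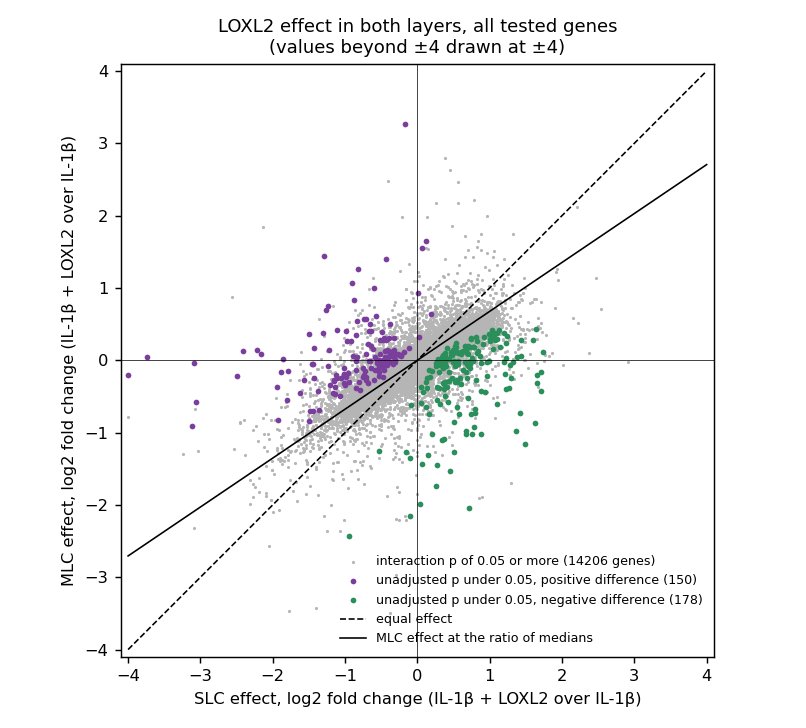
Each point is 1 of the tested genes, with its log2 LOXL2 effect in SLC on the horizontal axis and in MLC on the vertical axis. The cloud follows the solid line, drawn at the ratio of 0.68, more closely than the dashed line of equal effects. The 150 genes with a positive and the 178 with a negative difference at an unadjusted p under 0.05 lie above and below the line of equal effects.

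The groups separated in the same way. In 3968 genes (27.3% of genes tested) the IL-1β + LOXL2 libraries did not overlap the IL-1β libraries in either layer and moved the same way, with 1935 higher and 2033 lower. Groups did not overlap in 6961 genes in SLC (47.9%) and in 5772 genes in MLC (39.7%). They separated in opposite directions in 20 genes (0.138%).

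The genes with the largest shared effects were chosen for a large effect of the same sign in both layers, so their likeness follows in part from the choice. ATP7A, which encodes a copper transporter that loads copper onto secreted enzymes including lysyl oxidases, had 358, 544 and 338 normalized counts in SLC with IL-1β and 179, 23.4 and 47.4 with LOXL2. The MLC values were 404, 314 and 383 and then 165, 61.0 and 47.4. The log2 effects were -2.31 and -1.99, and the difference between the layers was 0.32 with a standard error of 0.81. In both layers the first LOXL2 library was the highest of its group, and in neither layer did the groups overlap. NBEAL1 (log2 effects of -2.24 in SLC and -1.75 in MLC), LRRC58 (-2.27 and -1.71) and ZBED6 (-2.09 and -1.88) were lower to a like extent. Genes higher in both layers included C18H16orf74 (0.94 and 1.29), CCER2 (1.22 and 0.91) and GDF1, a TGF-β family ligand (1.45 and 0.83). For these 7 genes the 95% interval of the difference was wide, from -1.42 to 2.54 for LRRC58 and from -0.54 to 1.23 for C18H16orf74. Among the 4 lower genes it reached beyond a log2 difference of 1 in both directions. Without the first SLC library with LOXL2 the difference was 2.18 for LRRC58, 1.65 for NBEAL1, 1.60 for ZBED6 and 1.58 for ATP7A. For C18H16orf74, CCER2 and GDF1 it was then 0.10, -0.54 and -0.88. Without the first MLC library with LOXL2 it was -0.53 for ZBED6 and -0.45 for ATP7A.

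No gene had an adjusted p under 0.05 for the interaction in edgeR's quasi-likelihood test (0 of 14534, 0%), with 0.959 as the smallest adjusted value. The unadjusted p was under 0.05 for 328 genes (2.26%), 150 with a positive difference (1.03%) and 178 with a negative one (1.22%). The share of 2.26% is below the fraction of 0.05 that this threshold would pass on average if no gene differed between the layers. Genes past the unadjusted p are therefore described below and are not called as interactions. DESeq2's Wald test also gave 0 genes after adjustment, with 304 at an unadjusted p under 0.05, of which 261 were among the 328 with the same sign. limma's voom with library quality weights gave 3509 genes after adjustment, 280 of them among the 328. That fit weighted the IL-1β + LOXL2 libraries 0.106, 0.214 and 11.8 in SLC and 0.234, 7.25 and 0.530 in MLC, so a single library carried most of the weight of each group. The median standard error of the difference was 0.24 on the log2 scale. Among the 328 genes, 157 had the same direction in both layers and 171 had opposite signs. The effect was the smaller one in MLC in 273 of them (83.2%, against 75.8% of all genes), and the absolute difference was at least 1 in 102. The sign of the difference was kept in all 12 fits that left out 1 library for 327 of the 328 genes, and the unadjusted p stayed under 0.05 in all 12 for 74. The 328 genes were chosen with all libraries, and each such fit shares all but 1 of them. A kept sign is therefore largely built in and is not independent support. A difference beyond proportion, the MLC effect minus 0.68 times the SLC effect, was at an unadjusted p under 0.05 in 176 genes (74 positive and 102 negative), of which 138 were among the 328, and edgeR gave 0 after adjustment. This contrast was chosen after the data were seen. A difference on the log2 scale is one of ratios. The difference of mean normalized counts had the other sign in 1622 of all genes tested (11.2%) and in 4 of the 328.

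Single libraries carried much of the apparent size difference between the layers. Each library was scored along the mean LOXL2 effect of both layers, where 0 is the mean IL-1β library of its layer and 1 is that mean effect. The SLC libraries with LOXL2 scored 0.47, 1.79 and 1.32, with a mean of 1.19 ± 0.67 (SD, n = 3). The MLC libraries with LOXL2 scored 0.41, 0.91 and 1.10, with a mean of 0.81 ± 0.36 (SD, n = 3). All 6 lay above the IL-1β libraries, which scored between -0.11 and 0.13. The first LOXL2 library had the lowest score in both layers, and the MLC scores all lay within the range of the SLC scores apart from the first. Scored along the effect of the other layer alone, which uses none of the same libraries, the order was the same, with 0.42, 1.77 and 1.30 in SLC and 0.26, 0.64 and 0.80 in MLC.

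**Figure D2:**
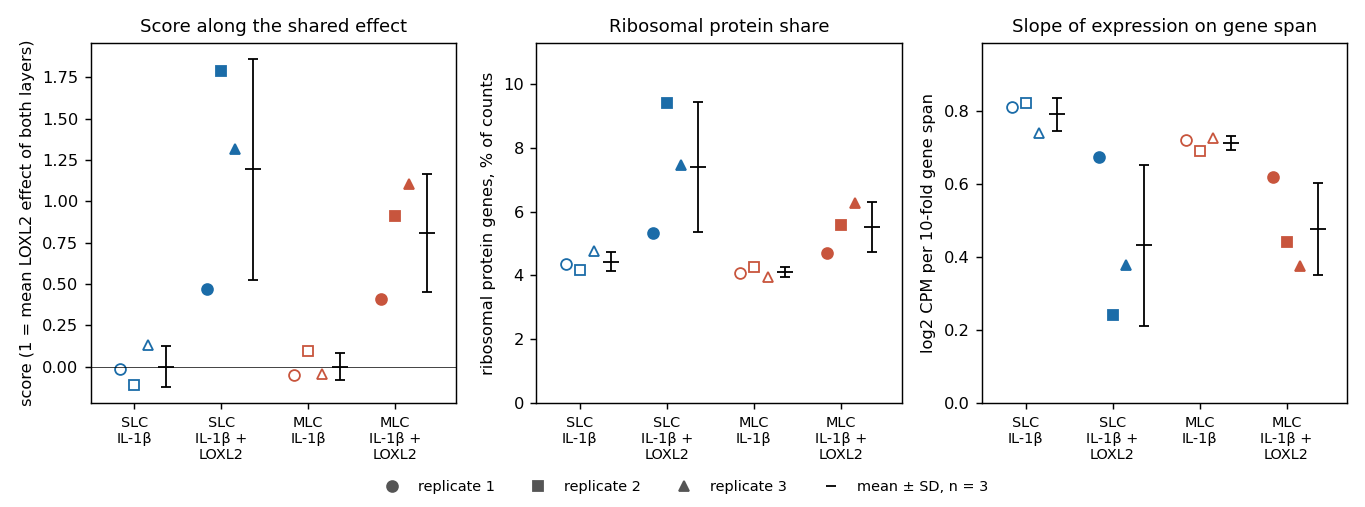
Values of the 12 libraries by group, with the score along the shared effect, the percent of counts on ribosomal protein genes and the slope of log2 CPM on log10 gene span in the 3 panels. Symbols mark the replicate number and the black bars give the mean ± SD of 3 libraries. The first LOXL2 library of each layer, at scores of 0.47 and 0.41, lies nearest to the IL-1β libraries in every panel.

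Measures of the whole library moved with the score. Cytosolic ribosomal protein genes took 4.17 to 4.76% of counts in SLC with IL-1β and 5.32, 9.41 and 7.45% with LOXL2, and 3.96 to 4.27% and then 4.71, 5.57 and 6.28% in MLC. The slope of log2 CPM on log10 of the genomic span of a gene was 0.74 to 0.82 in SLC with IL-1β and 0.67, 0.24 and 0.38 with LOXL2, and 0.69 to 0.73 and then 0.62, 0.44 and 0.37 in MLC. Across genes the effect correlated with log10 span at a Spearman rho of -0.47 in SLC, -0.44 in MLC and 0.33 for the difference, with all genes taken from the same libraries. Genes with a long span thus had lower effects in both layers, and less so in MLC. With each library's trend on span removed, the correlation of the layers was 0.70 and the ratio 0.67. Any other part of these measures in the difference between the layers was not tested.

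**Figure D3:**
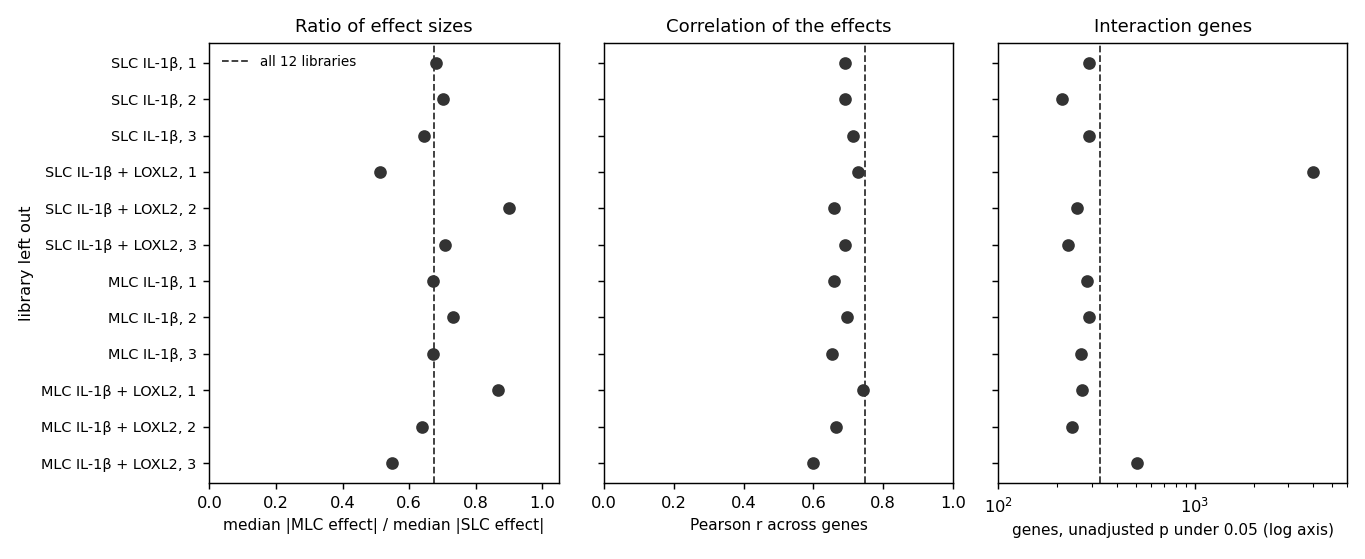
Each row is a fit on 11 libraries, named by the library left out. The panels give the ratio of median absolute effects, the Pearson r of the effects across genes and, on a log axis, the number of genes with an unadjusted interaction p under 0.05, and the dashed lines mark the values from all 12 libraries. The ratio moves between 0.51 and 0.90, and the count stands far from the others, at 3987, only without the first SLC library with LOXL2.

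Without the first SLC library with LOXL2 the ratio of effect sizes was 0.51, and 3987 genes had an unadjusted interaction p under 0.05. Of the 328 genes, 297 were among them. In that fit edgeR called 1 gene after adjustment, LOC108634776. Without the second SLC library with LOXL2 the ratio was 0.90, and without the first MLC library with LOXL2 it was 0.87. Without the third MLC library with LOXL2 it was 0.55, with 507 genes at an unadjusted p under 0.05. With the first LOXL2 library of both layers left out the ratio was 0.66, close to that of all libraries, with 2954 genes at an unadjusted p under 0.05 and 2 after adjustment, LOC108634776 and the transcribed pseudogene LOC108636123. The direction of the size difference, smaller in MLC, was the same in all 12 of the fits with 1 library left out, and its size ranged from 0.51 to 0.90. Within groups the median standard deviation of log2 CPM was 0.28 in SLC with LOXL2 and 0.19 in MLC with LOXL2, against 0.11 and 0.12 with IL-1β.

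Genes of cytosolic ribosomal proteins and of nuclear-encoded mitochondrial proteins had differences that were nearly all negative. All 80 cytosolic ribosomal protein genes tested had a negative difference, with a median effect of 0.87 in SLC, 0.45 in MLC and a median difference of -0.39. Over all genes tested the median difference was -0.02, and 46.5% of genes were positive. Only RPL39 and RPL38, both proteins of the large subunit, had an unadjusted p under 0.05, which is 2 of 80 against 2.26% of all genes. RPL39 (chromosome X, 24623505 to 24627009, ARS1.2) had 911, 877 and 941 normalized counts in SLC with IL-1β and 1223, 2350 and 1837 with LOXL2. Its MLC values were 587, 540.1 and 589 and then 667, 619 and 772. The groups did not overlap in either layer, and the effect was 1.01 in SLC and 0.27 in MLC (difference -0.74, standard error 0.26, 95% interval -1.31 to -0.18). It was past the unadjusted p in all 12 fits with 1 library left out, and RPL38 in 4 of 12. Ribosomal protein genes have many near-identical copies, and how reads mapping to several genes were counted is not given in the sources used here.

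The lists of nuclear-encoded mitochondrial proteins followed the same pattern. Of 77 mitochondrial ribosomal protein genes 71 had a negative difference (median effects 0.66 and 0.38, median difference -0.25), of 37 subunits of respiratory complex I 36 did (0.75 and 0.46, difference -0.29), and of 21 subunits of complexes II to V all 21 did (0.63 and 0.38, difference -0.28). Over the 12 fits that left out 1 library these medians ranged from -0.42 to -0.06, from -0.53 to -0.06 and from -0.44 to -0.10, lowest without the first and highest without the second SLC library with LOXL2. Past the unadjusted p were MRPL48 (difference -0.49), 1 of 77, and NDUFB4 (-0.61) and NDUFA3 (-0.72), 2 of 37, against 2.26% of all genes. NDUFB4, a membrane-arm subunit of complex I, had 316, 325 and 336 normalized counts in SLC with IL-1β and 473, 854 and 640.1 with LOXL2, and in MLC 379, 340.2 and 340 and then 430, 445 and 534. LOXL2 libraries lay above the IL-1β libraries in both layers for it. The 12 genes tested of the mitochondrial DNA itself did not follow these nuclear genes. Their median effects were -0.31 in SLC and -0.08 in MLC, with 8 positive and 4 negative differences and none past the unadjusted p. ND1 had the negative difference with the smallest p (-0.53, standard error 0.26) and ND4L the positive one (0.93, standard error 0.68). Proteasome subunits, which degrade tagged proteins, were negative in 36 of 38 (median effects 0.48 and 0.32), with none past the unadjusted p. Among 35 antioxidant enzymes 28 were negative, with median effects of 0.36 and 0.17. Only SOD3, the extracellular superoxide dismutase, was past the unadjusted p, which is 1 of 35 against 2.26% of all genes. Its effects were 0.49 in SLC and 0.10 in MLC (difference -0.40, standard error 0.15). The BCL2 family, which governs mitochondrial apoptosis, had median effects of 0.38 and 0.24, with 13 of 16 negative and none past the unadjusted p. The mean of the cytosolic ribosomal protein genes above the IL-1β libraries of the layer was 0.26, 1.26 and 0.84 in the SLC libraries and 0.21, 0.46 and 0.64 in the MLC libraries, so that the first library of each layer differed little. The median difference of this list ranged from -0.62 to -0.12 over the 12 fits that left out 1 library and kept its sign.

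**Figure D4:**
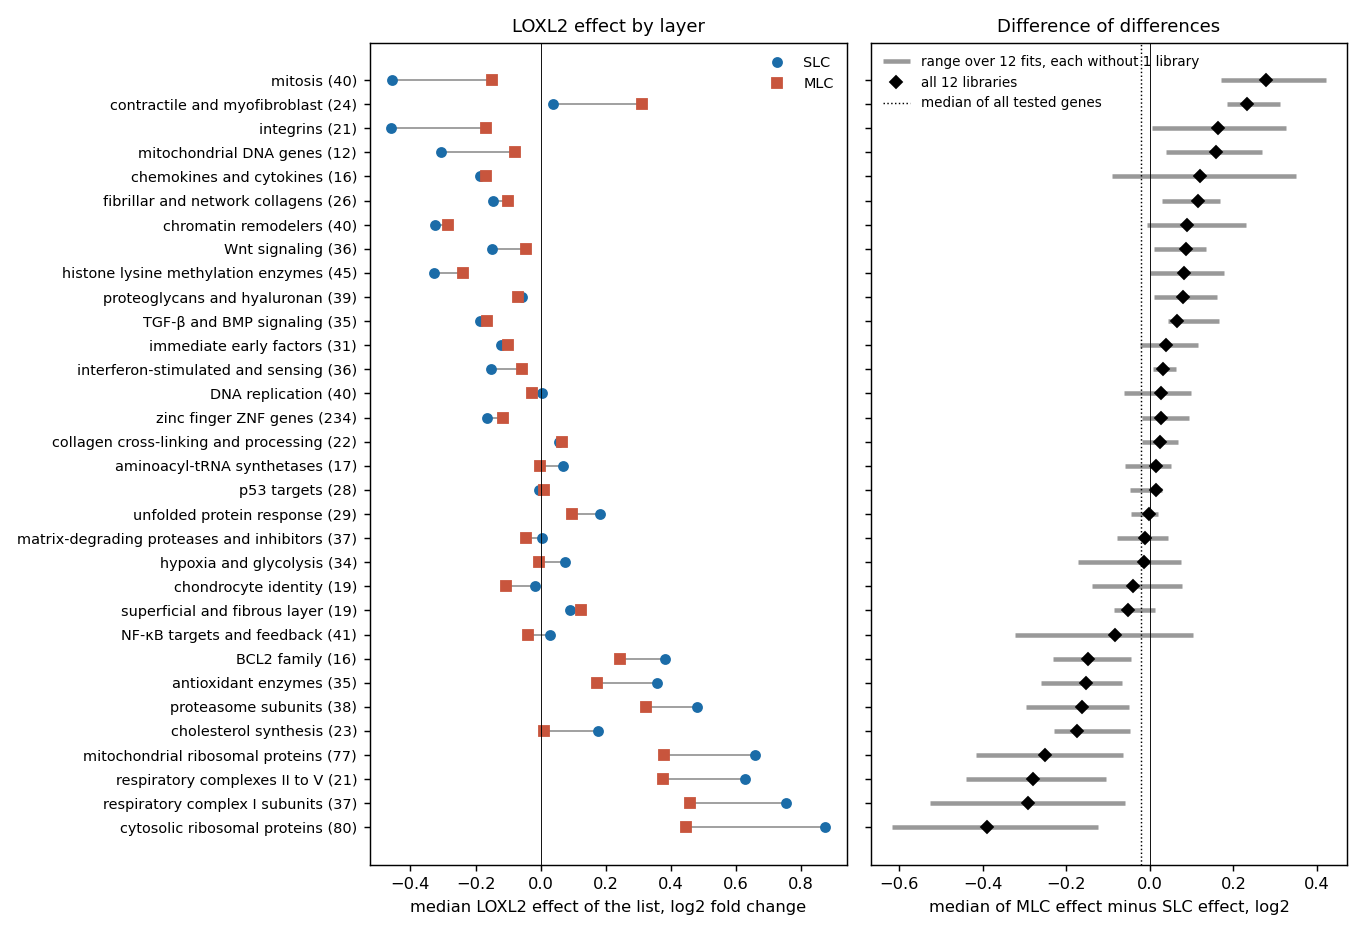
The 32 gene lists, with the number of tested members in brackets. The left panel gives the median LOXL2 effect in SLC (circles) and MLC (squares) and the right panel the median difference of differences (diamonds), with grey bars for its range over the 12 fits that each left out 1 library. Ribosomal protein genes lie lowest, at -0.39, and mitosis genes highest, at 0.28.

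Genes of mitosis and of contraction had differences that were mostly positive, in 2 different forms. Of 40 mitosis genes 37 had a positive difference, with a median effect of -0.46 in SLC, -0.15 in MLC and a median difference of 0.28. The absolute effect was smaller in MLC in 35 of these 40 (against 75.8% of all genes), as in the lists above. Their difference was positive because the effect was a decrease. KIF4A, a chromokinesin, and PLK1, a mitotic kinase, were past the unadjusted p, which is 2 of 40 against 2.26% of all genes. KIF4A (chromosome X, 11177125 to 11304219) had 283, 344 and 324 normalized counts in SLC with IL-1β and 207, 169 and 193 with LOXL2, against 698, 579 and 697 and then 597, 600.4 and 575 in MLC. It fell in SLC (log2 effect -0.73, adjusted p = 0.0149 from edgeR) and the MLC groups overlapped (log2 effect -0.15). The difference was 0.57 with a standard error of 0.16 (95% interval 0.22 to 0.93) and was past the unadjusted p in all 12 fits with 1 library left out. DNA replication genes did not show the shift (median difference 0.03 over 40 genes). The 2 of 40 past the unadjusted p (against 2.26% of all genes) were negative, ORC6 (-0.84) and FEN1 (-0.46).

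The contractile and myofibroblast list had a positive difference in 21 of 24 genes, and its median effect was 0.04 in SLC and 0.31 in MLC. Here the absolute effect was smaller in MLC in only 13 of the 24 genes. LMOD1 (chromosome 16, 79086673 to 79112942), which nucleates actin filaments in smooth muscle, had 900.5, 1213 and 1010 normalized counts in SLC with IL-1β and 826, 682 and 845 with LOXL2. In MLC it had 656, 632 and 684 and then 664, 901 and 866. It fell in SLC (log2 effect -0.39, adjusted p = 0.0424 from edgeR), while in MLC the last 2 LOXL2 libraries lay above all IL-1β libraries (log2 effect 0.30). The difference was 0.69 with a standard error of 0.20 (95% interval 0.26 to 1.13). FLNA, which cross-links actin, had a difference of 0.43 (standard error 0.20), past the unadjusted p in 3 of 12 fits with 1 library left out. The mean of the list above the IL-1β libraries was -0.01, 0.05 and 0.06 in the SLC libraries and 0.15, 0.39 and 0.36 in the MLC libraries. Its median difference was positive in all 12 such fits, from 0.18 to 0.31. Integrins, the receptors that tie cells to the matrix, had median effects of -0.46 and -0.17 over 21 genes, with 14 differences positive and none past the unadjusted p.

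**Figure D5:**
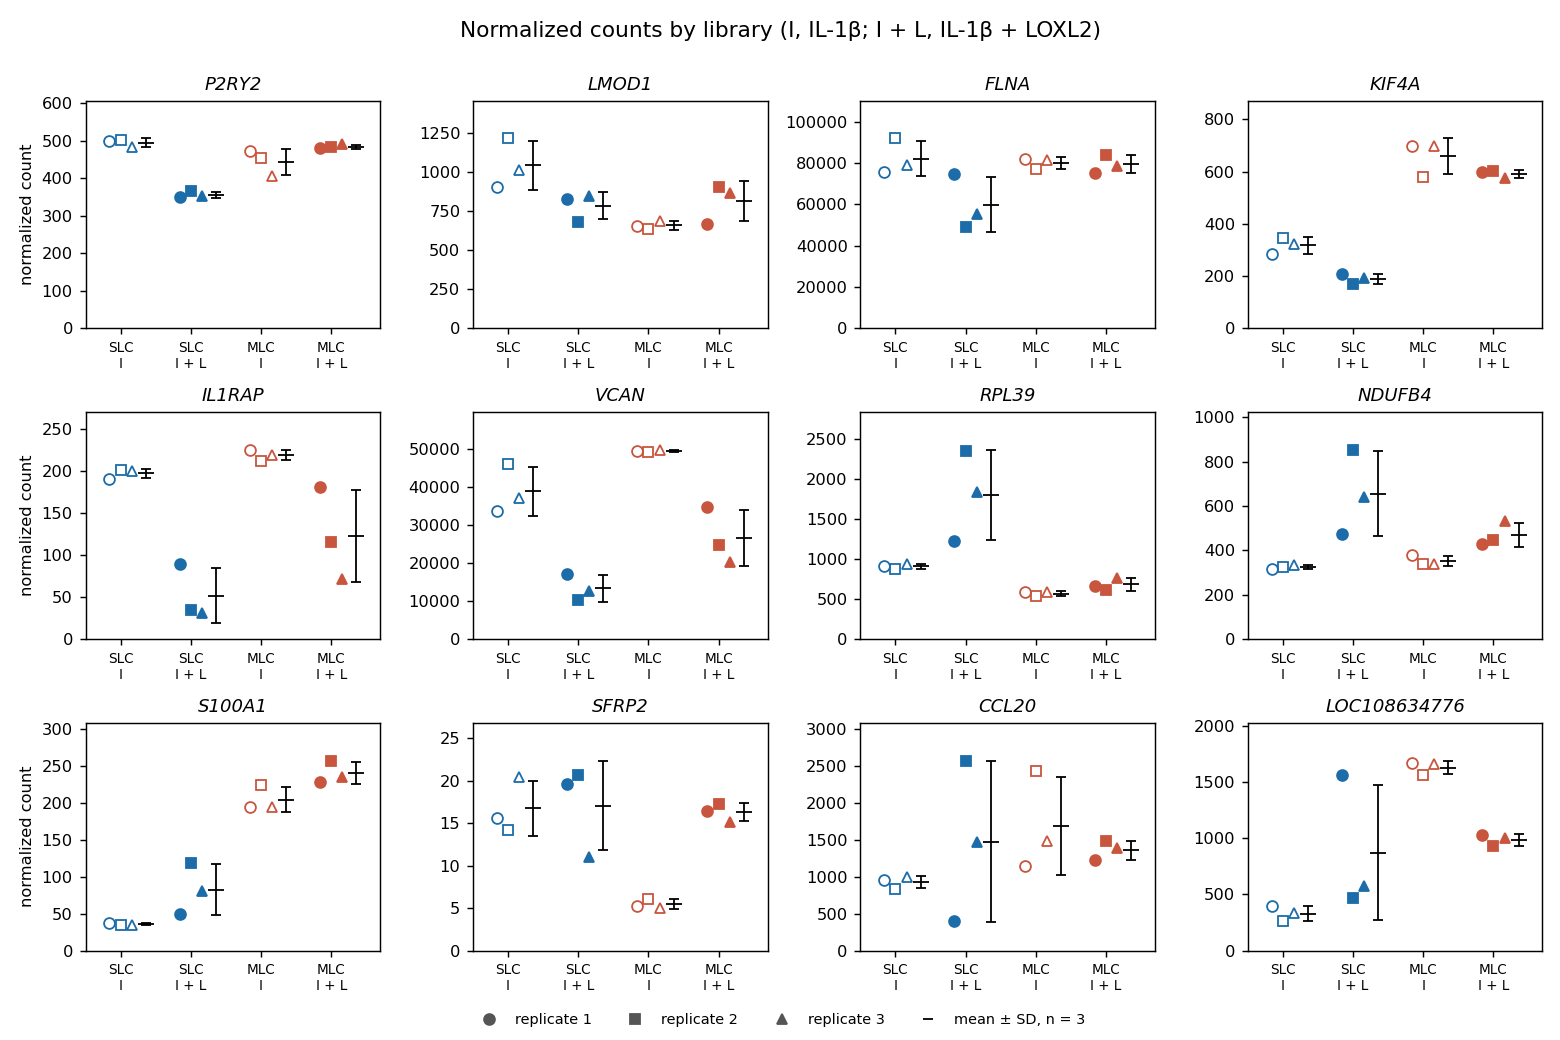
Normalized counts of 12 genes in every library, from 0 upwards, by layer and treatment. Symbols mark the replicate number and black bars the mean ± SD of 3 libraries. P2RY2 is lower with LOXL2 in SLC and higher in MLC without overlap, and LOC108634776 has 1 SLC library with LOXL2, at 1563, far above the other 2 of its group.

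The inflammatory lists depended on single libraries. For 41 NF-κB targets and feedback genes the median effects were 0.03 in SLC and -0.04 in MLC, and the median difference was -0.08, with 17 positive, 24 negative and none past the unadjusted p. The 3 SLC libraries with LOXL2 did not move together. Their list means above the IL-1β libraries were -0.58, 0.25 and 0.02, whereas those of MLC were -0.10, -0.02 and -0.08. The median difference was -0.32 without the first SLC library with LOXL2 and 0.10 without the second. CCL20, a chemokine induced by IL-1β, showed the split most plainly, with 950.1, 831 and 994 normalized counts in SLC with IL-1β and 396, 2570 and 1463 with LOXL2. In MLC it had 1139, 2425 and 1489 and then 1223, 1478 and 1382, so the groups overlapped in both layers. NFKBIA, the inhibitor that NF-κB itself induces, had 1735, 1470 and 1581 and then 1292, 2475 and 2112 in SLC. For 16 chemokines and cytokines the median difference was 0.12, and it ranged from -0.09 to 0.35 when 1 library was left out. IL1RAP (chromosome 1, 76348425 to 76502431), a receptor subunit shared within the IL-1 family, was not a member of these lists. It had 191, 201 and 199 normalized counts in SLC with IL-1β and 89.3, 34.3 and 31.3 with LOXL2, and in MLC 225, 212 and 219 and then 181, 115 and 71.6. It was lower without overlap in both layers, with a log2 effect of -1.92 in SLC and -0.83 in MLC (difference 1.09, standard error 0.50, 95% interval 0.01 to 2.18). That difference was past the unadjusted p in only 2 of the 12 fits with 1 library left out, where it ranged from 0.69 to 1.73.

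Among 31 immediate early factors, which respond within minutes to a stimulus, 3 were past the unadjusted p (against 2.26% of all genes). All 3 were positive (against 1.03% of all genes). NR4A3, an orphan nuclear receptor, had effects of -1.48 and -0.71, its relative NR4A1 of -0.51 and 0.09, and the MAP kinase phosphatase DUSP4 of -0.48 and -0.04. Of the 12 fits with 1 library left out, NR4A3 was past the unadjusted p in 5 and NR4A1 in 6. NR4A3 had 65.2, 96.2 and 109 normalized counts in SLC with IL-1β and 40.0, 29.5 and 26.2 with LOXL2, and in MLC 84.2, 87.8 and 76.8 and then 52.1, 45.1 and 54.5. The groups did not overlap in either layer. The median difference of the list was 0.04, and 19 of its members were positive.

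Matrix genes gave small median differences with a few larger members. Over 26 collagens the median difference was 0.12 with 19 positive, and over 39 genes of proteoglycans and hyaluronan it was 0.08 with 24 positive. COL8A1, a short-chain network collagen, had effects of -0.70 and -0.23 (difference 0.48, standard error 0.18). COL11A2, a chain of the type XI collagen of cartilage, had effects of 0.98 and -0.01, with 8.8, 27.6 and 18.6 normalized counts in SLC with IL-1β and 31.5, 43.3 and 33.8 with LOXL2. VCAN (chromosome 7, 27133454 to 27253501), the large proteoglycan of loose matrix, missed the unadjusted threshold for the interaction. It had 33700, 46080 and 37120 normalized counts in SLC with IL-1β and 17250, 10300 and 12610 with LOXL2, and in MLC 49590, 49350 and 49900 and then 34770, 24760 and 20320. It fell in SLC (log2 effect -1.52, adjusted p = 0.0149 from edgeR) and was lower without overlap in MLC (-0.90, adjusted p = 0.174), and its difference of 0.63 had a 95% interval of -0.01 to 1.26. SDC2, a cell-surface heparan sulfate proteoglycan, was higher in both layers (0.54 and 0.23, difference -0.31, standard error 0.12). Of 37 proteases that degrade matrix and their inhibitors only ADAMTS1 was past the unadjusted p, which is 1 of 37 against 2.26% of all genes. Its effects were -1.07 and -0.49 (difference 0.58), and it was past that p in 6 of the 12 fits with 1 library left out. The list median was -0.01, with a sign that changed under 11 of 19 alternatives. The collagen cross-linking list had a median difference of 0.02 over 22 genes. Its members with the smallest p, LOX (0.38, standard error 0.19) and PLOD2 (0.51, standard error 0.30), were both lower with LOXL2, by -0.67 and -0.90 in SLC and by -0.30 and -0.40 in MLC.

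The identity lists of the layers had median differences near 0. The median difference was -0.04 over 19 chondrocyte identity genes and -0.05 over 19 genes of the superficial and fibrous layer. Of the chondrocyte identity genes, 1 with a positive and 1 with a negative difference were past the unadjusted p, against 2.26% of all genes. SFRP2, a secreted Wnt inhibitor, was the only member of the superficial and fibrous list past the unadjusted p (1 of 19) and was higher with LOXL2 in MLC. It had 15.6, 14.2 and 20.4 normalized counts in SLC with IL-1β and 19.6, 20.6 and 10.99 with LOXL2, against 5.3, 6.1 and 5.0 and then 16.4, 17.2 and 15.1 in MLC. The MLC groups were far apart and the SLC groups overlapped (95% interval of the difference 0.46 to 2.53), at low counts. CILP, also at low counts, had a difference of 1.68 with a standard error of 0.77. It was past the unadjusted p with all libraries and in 4 of the 12 fits with 1 library left out.

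Chromatin regulators were lower with LOXL2 in both layers and differed little between them. Enzymes of histone lysine methylation had median effects of -0.33 and -0.24 over 45 genes and chromatin remodelers of -0.32 and -0.29 over 40, with median differences of 0.08 and 0.09. ARID3A, a DNA-binding regulator, was the only remodeler past the unadjusted p, 1 of 40 against 2.26% of all genes (effects -1.17 and -0.45, difference 0.71). The 234 ZNF genes had a median difference of 0.03 with 126 positive. Past the unadjusted p were 4 of 234, which is not above the 2.26% of all genes. These were ZNF132, ZNF268, ZNF276 and ZNF782, all positive (0.45 to 0.84). Cholesterol synthesis genes had a median difference of -0.17 over 23 genes, with FDFT1 at -0.35. Lists on TGF-β and BMP signaling (0.06), Wnt signaling (0.09), interferon-stimulated genes (0.03), p53 targets (0.01), aminoacyl-tRNA synthetases (0.01), the unfolded protein response (0.00) and hypoxia and glycolysis (-0.01) lay near 0. CA9, a carbonic anhydrase of the hypoxia list, had a difference of -1.49 (standard error 0.57), and RARS2 one of -0.36.

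Genes with a symbol and an average of at least 1 log2 CPM were ranked by their difference at an unadjusted p under 0.05. The 8 largest positive differences all had a negative SLC effect. The ranking favors this sign, since the absolute effect was smaller in MLC for 75.8% of all genes. In 7 of the 8 genes the MLC groups overlapped, while over all genes they did not overlap in 39.7%. AKAP5, a scaffold for protein kinase A, had 68.1, 97.9 and 83.5 normalized counts in SLC with IL-1β and 61.2, 32.3 and 38.0 with LOXL2, while MLC had 27.6, 26.8 and 33.5 and then 33.8, 27.8 and 43.4. It fell in SLC (log2 effect -0.91, adjusted p = 0.0181 from edgeR), and its difference of 1.18 (standard error 0.39) was past the unadjusted p in all 12 fits with 1 library left out. BMPR1B, a BMP receptor, fell in SLC from 124, 116 and 130 to 96.1, 70.1 and 65.1 (log2 effect -0.66, adjusted p = 0.0211 from edgeR), while MLC held 7.3 to 7.9 with IL-1β and 7.1 to 14.5 with LOXL2 (difference 1.17, standard error 0.41). PRKAA2, a catalytic subunit of AMP-activated kinase, had 163, 182 and 138 and then 113, 52.2 and 54.1 in SLC and 61.5 to 86.6 in all MLC libraries (difference 0.92, standard error 0.38). EHD3 (1.16), KIAA1147 (0.94) and FOXE3 (0.92) had the same form, with a decrease in SLC and overlapping MLC groups. HOXA7 also met this rule, but its SLC libraries held 1, 1 and 3 counts with IL-1β and 0 with LOXL2, at the floor of 3 counts, so no fold is given.

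The 8 largest negative differences all had a positive SLC effect, which the ranking favors in the same way. The MLC groups overlapped in each of them apart from S100A1. S100A1, a calcium-binding protein of cartilage and muscle, rose in SLC from 38.0, 35.1 and 35.2 to 49.3, 118 and 80.3 normalized counts (log2 effect 1.22, adjusted p = 0.0152 from edgeR). In MLC it had 195, 224 and 195 and then 229, 257 and 235, higher without overlap (log2 effect 0.23), and the difference was -0.99 with a standard error of 0.34. KRTCAP3 (-1.34), SYCE1L (-1.33) and RSPH9 (-0.97) also had positive SLC effects, each highest in the second LOXL2 library. KRTCAP3 had 65.5, 155 and 84.6 normalized counts in the SLC libraries with LOXL2, SYCE1L 33.2, 139 and 90.5 and RSPH9 46.8, 109 and 73.6. The SLC groups overlapped for SYCE1L, with 34.3 in the third IL-1β library. Of the 12 fits with 1 library left out, KRTCAP3 was past the unadjusted p in 7, SYCE1L in 3 and RSPH9 in 2. HOOK2 (-0.92) and ARRB1, an arrestin of receptor desensitization (-0.94), had MLC effects of -0.04 and -0.33. NRN1 (-1.35) rested on SLC values of 3.3 to 12.8 normalized counts, against 213 to 270 in MLC.

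Opposite effects were rare. Of the 20 genes that separated without overlap in opposite directions, 11 were higher in SLC and lower in MLC and 9 were the reverse. At an unadjusted interaction p under 0.05 were 16 of the 20, against 2.26% of all genes. The separation and the p come from the same libraries, so a high share follows from the choice and is not independent evidence. None passed after adjustment over all genes, where edgeR gave 0.959 for each. The 8 of these 16 with a symbol and an average of at least 1 log2 CPM are named here after their values were seen. P2RY2 (chromosome 15, 30281958 to 30302115), a purinergic receptor for extracellular nucleotides, had 500.4, 503 and 482 normalized counts in SLC with IL-1β and 351, 366 and 353 with LOXL2. The MLC libraries held 474, 454 and 407 and then 480, 482 and 490.3. It fell in SLC (log2 effect -0.45, adjusted p = 0.0152 from edgeR) and had a log2 effect of 0.13 in MLC (adjusted p = 0.344). The difference was 0.58 with a standard error of 0.12 and a 95% interval of 0.31 to 0.85, and it stayed between 0.52 and 0.63 in the 12 fits that left out 1 library. The first LOXL2 library did not stand apart for this gene in either layer. EME2, a subunit of a DNA repair nuclease (0.64), RARB, a retinoic acid receptor (0.72), and MAP2K7, a kinase upstream of JNK (0.28), moved in the same direction as P2RY2. KCNAB2, a potassium channel subunit (-0.53), LIAS, the mitochondrial lipoic acid synthase (-0.33), CCDC112 (-0.68) and C16H1orf27 (-0.30) had the reverse pattern. P2RY2, EME2, RARB, KCNAB2 and CCDC112 were past the unadjusted p in all 12 such fits.

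LOC108634776, a protein-coding gene on an unplaced scaffold, had the smallest adjusted p when the first SLC library with LOXL2 was left out, and it too is named after its values were seen. It had 393, 260.2 and 331 normalized counts in SLC with IL-1β and 1563, 471 and 578 with LOXL2, against 1673, 1563 and 1661 and then 1033, 929 and 1001 in MLC. The groups did not overlap in either layer and moved in opposite directions, with effects of 1.43 and -0.72. In SLC the first LOXL2 library lay far above the other 2. The difference was -2.15 with all libraries and -1.42 without that library, where the adjusted p from edgeR was 0.0258.

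Of 16 genes that the study names, 14 were tested, and none had an unadjusted interaction p under 0.05. The study names some of them from goat cells and others from mouse data or earlier work, and all were taken up here with earlier results of these data known, so their direction is not independent evidence. IL1B had 2 counts in each layer and MMP9 25, and neither was tested. ADAMTS5, the main aggrecan-cleaving protease, had 5004, 4792 and 3716 normalized counts in SLC with IL-1β and 2101, 1320 and 1474 with LOXL2, and in MLC 3007, 3988 and 3199 and then 2390, 1696 and 1275. It was lower without overlap in both layers (log2 effects -1.45 and -0.93), and the difference of 0.52 had a 95% interval of -0.17 to 1.21 and ranged from 0.26 to 0.74 when 1 library was left out. PTGS2, the inducible cyclooxygenase, was lower in both layers (-1.07 and -0.71, difference 0.36). That difference was 0.10 without the first SLC library with LOXL2, 0.61 without the second and 0.0079 without the first LOXL2 library of both layers. GPX4, which reduces lipid peroxides, was higher in both (0.97 and 0.47, difference -0.50, 95% interval -1.15 to 0.14, range -0.73 to -0.20 when 1 library was left out). MMP13, a collagenase, had 22.4, 29.3 and 18.6 normalized counts in SLC with IL-1β and 6.0, 52.9 and 44.8 with LOXL2, and in MLC 82.9, 339 and 129 and then 140.0, 158 and 91.8. Groups overlapped in both layers, and the difference of -1.10 had a standard error of 0.86. Differences were 0.19 for LOXL2, 0.15 for NFKB1, 0.09 for SOX9, 0.08 for KDM6B, 0.04 for ACAN, -0.04 for ADAMTS4, -0.07 for RELA, -0.10 for SOD1 and -0.19 for TXNRD2. Their standard errors lay between 0.13 for LOXL2 and 0.30 for TXNRD2. With voom and quality weights in limma, 4 of the 14 tested passed, in a fit that called 3509 of all 14534 genes tested. In that limma fit they were ADAMTS5 (0.66, adjusted p = 0.00398), GPX4 (-0.41, adjusted p = 0.0105), NFKB1 (0.23, adjusted p = 0.0277) and SOD1 (-0.25, adjusted p = 0.0369).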

How the data were processed

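The 12 RNA-seq libraries were made from cultured goat TMJ cells after poly-T selection. Paired-end reads were trimmed by the authors and aligned (HISAT2 per the labels) to the goat assembly ARS1.2. The authors then used featureCounts to assign reads to genes and deposited the raw counts in 1 table for each layer. Settings for strand and for reads mapping to several genes are not given in the sources used here. Counts of overlapping, antisense and near-identical genes are therefore uncertain. Of 28910 rows, 28884 matched a RefSeq symbol of ARS1.2, 1783 shared a name with another row and 26 had names turned into dates. The tables were joined by row position after checking that the names were identical, and every column was used.

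Counts were fitted as 4 group means, without a replicate block, by the quasi-likelihood functions glmQLFit and glmQLFTest of edgeR 4.0.16 (R 4.3.3). Scaling was by TMM, and filterByExpr kept genes by a count of 10 and a total of 15. The contrast was the MLC effect minus the SLC effect, with Benjamini-Hochberg adjustment over all genes tested and a threshold of 0.05. The study fitted each layer alone with DESeq2. The standard error is the absolute log2 difference divided by the square root of F. The 95% interval uses the total degrees of freedom of edgeR's test, residual and prior together. Normalized counts were scaled with the size factors of DESeq2 1.42.0. Library scores used log2 CPM (prior count 2), centred on the library median. The span is that of the RefSeq gene, introns included. Alternatives were other scaling and filters, DESeq2's Wald test, voom with quality weights in limma 3.58.1, a replicate block, the removal of each library's lowess trend on span (smoother span 0.3), thinning to 14158607 counts and each library left out.

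The chi-square of each replicate pair, divided by its degrees of freedom, was 2.23 or more, so no library was taken for a duplicate. The procedure was tested on simulated counts. Genes and lists were chosen with earlier results of these data known. Genes are named if they are among 16 study genes, the 8 largest positive or 8 largest negative differences at an unadjusted p under 0.05 and an average of at least 1 log2 CPM, the 4 largest shared effects in each direction, or the 2 members of a described list with the smallest p. No symbol met the part of the rule on effects that pass the unadjusted p in both layers with opposite signs. Any other gene is said to be named after its values were seen, or is a member of a list that passed the unadjusted p. A few genes that this rule names are not reported here. Lists were written from general knowledge or taken by symbol pattern.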

Additional observations from a re-analysis of the deposited data

Results flagged for a closer look

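Genes whose groups separated without overlap in opposite directions in the layers stood out, and there were 20 of them, 0.138% of genes tested. The interaction was tested for each on the same libraries that showed the separation, so the test is not independent of the choice. None passed the adjusted threshold in edgeR's fit of all libraries. The difference of differences was -2.15 for LOC108634776, 0.28 for MAP2K7, 0.58 for P2RY2, -0.30 for C16H1orf27, -0.53 for KCNAB2, -0.33 for LIAS, 0.64 for EME2, -0.68 for CCDC112 and 0.72 for RARB.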

How the results depend on the processing

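The count of genes past the adjusted interaction threshold was 0 to 1 when 1 library was left out, 2 without the first LOXL2 library of both layers and 3509 with voom quality weights. The count at an unadjusted p under 0.05 was 212 to 3987 when 1 library was left out, 2954 without the first LOXL2 library of both layers, 5671 with voom and 176 for the proportional difference. The correlation of the layers was 0.60 to 0.74 when 1 library was left out, 0.18 without a filter on low counts, 0.89 with at least 10 counts in every library, 0.69 with voom and 0.70 with the span trend removed. The ratio of effect sizes was 0.51 to 0.90 when 1 library was left out, and the share of genes with the same direction was 82.5% to 86.1%. That share was 71.0% without a filter, 88.5% with at least 10 counts in every library and 83.3% with the span trend removed.

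With a replicate block within each layer, the counts were 0 after adjustment and 222 at an unadjusted p under 0.05, 195 of them shared with the 328. Same-numbered libraries correlated weakly in their deviations from the group means (0.03, -0.23 and 0.12 in SLC, 0.08, 0.11 and -0.05 in MLC), and across layers at 0.61, 0.21 and 0.17 among the LOXL2 libraries but -0.05, -0.09 and -0.05 among the IL-1β libraries. The second SLC library with LOXL2 correlated best with the third of MLC (0.45). The numbers were therefore not taken as pairs. With a block of the number across both layers, chosen after the data were seen, the counts were 0 and 370, and with such a block within each treatment 0 and 716, 263 of them shared with the 328. No block changed an interaction call after adjustment, and the last gave 3316 adjusted calls for the MLC effect.

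Over 86 named genes, 1798 values under the alternatives were computed, and 1704 kept direction and side of the threshold, 68 passed it (66 of them with voom) and 26 changed sign. The threshold here is that on the adjusted interaction p, which 0 genes passed with all libraries and at most 2 in any fit other than voom. Keeping its side was thus largely fixed in advance and does not measure stability. When 1 library was left out, the difference ranged from -0.14 to 0.33 for ACAN, -0.17 to 0.020 for RELA, -0.069 to 0.26 for SOX9, -0.00165 to 0.13 for KDM6B, -0.42 to 0.089 for TXNRD2, -0.15 to 1.65 for NBEAL1, -0.53 to 1.60 for ZBED6, -0.13 to 2.18 for LRRC58, -0.15 to 0.12 for ADAMTS4, -0.45 to 1.58 for ATP7A and -0.66 to 0.077 for CCER2. With the span trend removed it was -0.036 for ACAN, 0.0045 for RELA and 0.046 for ADAMTS4, with voom 0.11 for ADAMTS4, and after thinning 0.0043 for ADAMTS4. Of the 32 lists, 17 kept the sign of the median difference under every alternative, and it changed under 8 of 19 for the aminoacyl-tRNA synthetases and the unfolded protein response.
Thinning all libraries to equal depth gave 0 and 321 genes. The cause of these changes was not tested.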
